A study of Homo sapiens with 6 samples.

Results

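The expression of 50 genes of mitosis and the spindle checkpoint was examined in NB4 cells treated with Tanshinone I (Tan I), a compound from the herb Salvia miltiorrhiza. The genes were taken by symbol from a list that runs from mitotic entry to cytokinesis, with the proliferation markers MKI67 and TOP2A. All 50 were among the 18625 genes in the table, and all 50 passed the filter of a mean of at least 10 normalized counts that left 16887 genes for testing. A normalized count is the number of reads on a gene divided by a size factor of its library.

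NB4 is a cell line from human acute promyelocytic leukemia, so the samples stood for 1 line and not for different patients. The DMSO group received DMSO, the solvent, and the Tan I group received Tan I at 10 μM, each for 3 days and with 3 RNA-seq libraries. No label said whether the libraries of a group came from separate cultures, so the p-values measure only the spread between these libraries, which may be technical. The comparison asked whether Tan I changed the transcript levels of the leukemia cells.

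Of 9 promyelocyte markers 8 were listed in the table, and ELANE was not. MPO, the myeloperoxidase of neutrophil granules, had between 33279 and 64107 normalized counts in the 6 libraries, which fitted the labelled cell type. The markers of the other cell types checked lay far below MPO, but not all were near 0. The T cell marker CD3D had 245 to 515 normalized counts, whereas the promyelocyte marker CEBPE had 202 to 394. The sum of the 3 of 4 T cell markers in the table was 320 to 620 normalized counts, and that of the 2 of 4 B cell markers 159 to 179. For erythroid cells 1 of 5 markers was in the table, ALAS2, at 10.7 to 51.3, and for fibroblasts 1 of 4, COL1A1, at 65.5 to 120. The 6 libraries held between 21502760 and 31679138 reads on the listed genes, and each Tan I library held fewer than any DMSO library. Over the genes tested, the first principal component carried 70.8% of the variance and did not follow treatment: DMSO replicate 2 lay at 41.1 and Tan I replicate 3 at 71.6, whereas DMSO replicates 1 and 3 and Tan I replicate 1 lay between -48.0 and -26.7, and Tan I replicate 2 lay at 8.65.

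A cell enters mitosis when cyclin B with the kinase CDK1 becomes active, a step driven by the CDC25 phosphatases and by the kinases PLK1 and AURKA. The spindle checkpoint then holds the cell before anaphase until microtubules have attached to each kinetochore, after which CDC20 activates the anaphase-promoting complex (APC/C), securin and cyclin B are destroyed, and separase opens the cohesin rings. Most of these genes are transcribed late in the cell cycle, when the MuvB complex joins B-MYB and FOXM1, and they are held down in resting cells by the DREAM complex. In bulk RNA, a change in the number of cells in mitosis and a change in the RNA of these genes per cell cannot be told apart.

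The promoters of these genes are known for a short element, the cell cycle genes homology region with the core TTTGAA, which MuvB complexes bind, and for CCAAT boxes, which the factor NF-Y binds. RefSeq promoter sequences on GRCh38.p14 (250 bases before and 50 after a transcription start) were matched for 42 of the 50 genes by symbol. The entries of AURKA, FOXM1, BUB3, TTK, BIRC5, KNL1, TPX2 and UBE2C were not among those matched. The 100 bases before the start of 8 of the genes are given here to show the arrangements that these elements take in members of several roles. The capitals mark TTTGAA (or its reverse TTCAAA) and CCAAT (or its reverse ATTGG). In these windows PLK1, CCNB2, CDC25C, KIF4A and CDC20 hold both elements, CCNB1 holds CCAAT alone, CENPA holds TTTGAA alone and NUF2 holds neither.
PLK1: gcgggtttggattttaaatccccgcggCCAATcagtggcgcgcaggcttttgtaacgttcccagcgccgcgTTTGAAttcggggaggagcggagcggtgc
CCNB2: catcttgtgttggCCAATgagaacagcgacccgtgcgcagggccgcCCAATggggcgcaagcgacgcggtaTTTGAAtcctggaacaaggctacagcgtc
CDC25C: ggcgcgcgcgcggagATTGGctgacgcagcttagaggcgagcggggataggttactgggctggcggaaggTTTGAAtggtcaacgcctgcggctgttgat
KIF4A: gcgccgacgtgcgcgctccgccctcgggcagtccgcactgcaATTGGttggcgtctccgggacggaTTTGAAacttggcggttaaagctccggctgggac
CDC20: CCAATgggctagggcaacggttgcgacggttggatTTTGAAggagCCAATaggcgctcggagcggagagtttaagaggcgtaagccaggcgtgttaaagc
CCNB1: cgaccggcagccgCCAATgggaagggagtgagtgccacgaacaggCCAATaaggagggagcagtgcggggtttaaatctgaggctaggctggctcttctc
CENPA: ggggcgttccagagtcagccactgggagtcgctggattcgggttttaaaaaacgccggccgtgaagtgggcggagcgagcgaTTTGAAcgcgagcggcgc
NUF2: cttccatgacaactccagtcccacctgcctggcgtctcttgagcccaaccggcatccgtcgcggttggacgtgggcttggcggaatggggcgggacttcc

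These windows lie at chr16:23678789-23678888 (PLK1, plus strand), chr15:59105046-59105145 (CCNB2, plus), chr5:138331805-138331904 (CDC25C, minus), chrX:70290004-70290103 (KIF4A, plus), chr1:43358881-43358980 (CDC20, plus), chr5:69167050-69167149 (CCNB1, plus), chr2:26785956-26786055 (CENPA, plus) and chr1:163321854-163321953 (NUF2, plus). CDC25C had several starts, and the one shown is the start with a TTTGAA. The element began 29 bases before the start in both PLK1 and CCNB2, 30 bases before it in CDC25C, 34 in KIF4A and 18 in CENPA, and 65 bases before the start in CDC20.

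Over the genes with an entry, TTTGAA or TTCAAA stood within 60 bases before a start in 17 of 42 members (40.5%), against 3.42% of all 27305 genes with a promoter entry. CCAAT or ATTGG stood within 250 bases before a start in 35 of 42 (83.3%), against 37.0% of all genes. Both were found together in 15 of 42 members (35.7%), against 1.20% of all genes. The letters describe these windows and do not show that a factor was bound. Members with and without TTTGAA near the start had similar median log2 fold changes under Tan I, 0.16 over 17 genes and 0.15 over 25 genes.

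The members as a group stood slightly higher in the Tan I libraries, and no single member passed after adjustment. A log2 fold change is Tan I minus DMSO on the log2(normalized count + 1) scale. It was above 0 in 39 of the 50 members (78%), against 49.7% of all genes tested, and its median was 0.15 for the members against -0.00 for all genes tested. The range ran from -0.28 for PRC1 to 0.42 for CDC25C. With limma, 4 members (8%) had an unadjusted p of at most 0.05 and a log2 fold change of 0.25 or more in size, hereafter the unadjusted rule, and all 4 were higher in Tan I: CCNB1, CDC25C, AURKA and NUF2. On GRCh38 CCNB1 (ENSG00000134057) lies at chr5:69167135-69178245 on the plus strand, CDC25C (ENSG00000158402) at chr5:138285269-138338355 on the minus strand, AURKA (ENSG00000087586) at chr20:56369389-56392337 on the minus strand and NUF2 (ENSG00000143228) at chr1:163266576-163355764 on the plus strand. By the same rule 1.32% of all genes tested were higher and 1.1% lower, or 2.42% in either direction, and 0 members were lower.

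After Benjamini-Hochberg adjustment over all 16887 genes, limma called 0% of genes and 0 members. The smallest adjusted p of any gene was 0.118, and 410 genes had an unadjusted p of at most 0.05 at any fold. In all members the limma adjusted p was 0.999 or higher. Over all genes DESeq2 on the recovered reads gave 16 genes with an adjusted p of at most 0.05 and edgeR gave 0, with 0 members in each. The exact permutation test of a single gene cannot go below 0.1 with 3 libraries against 3, so it could not reach 0.05 for any member.

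In 12 members (24%) every Tan I library lay above every DMSO library, against 3.92% of all genes tested. These were CDK1, CCNA2, CCNB1, CDC25C, PLK1, AURKA, NUF2, SPC25, KIF18A, KIF2C, TPX2 and KIF4A. No member had all Tan I libraries below all DMSO libraries, as 3.97% of all genes did, and the groups overlapped in the other 38 members. In either direction 7.89% of all genes did not overlap. DMSO replicate 2 gave the lowest value in 28 members and Tan I replicate 3 the highest in 23 members, and these were the libraries at the high end of the first principal component. With both left out, 37 members were above 0 with a median of 0.09, and 19 members did not overlap between the groups and were higher in Tan I, against 15.9% of all genes. By the unadjusted rule 1 member, KIF11, was then called higher, against 1.6% of all genes, and none of the 4 named above. With single libraries left out, the rule called 1 member higher without DMSO replicate 1 (against 0.586% of all genes), 1 without Tan I replicate 2 (0.456%) and 1 without Tan I replicate 3 (0.782%). It called 2 without DMSO replicate 2 (1.72%), 3 without DMSO replicate 3 (0.705%) and 11 without Tan I replicate 1 (4.32%), so the share of all genes called moved with the library left out as well. The number of members above 0 was then 30 without DMSO replicate 2 and between 35 and 48 otherwise.

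**Figure D1:**
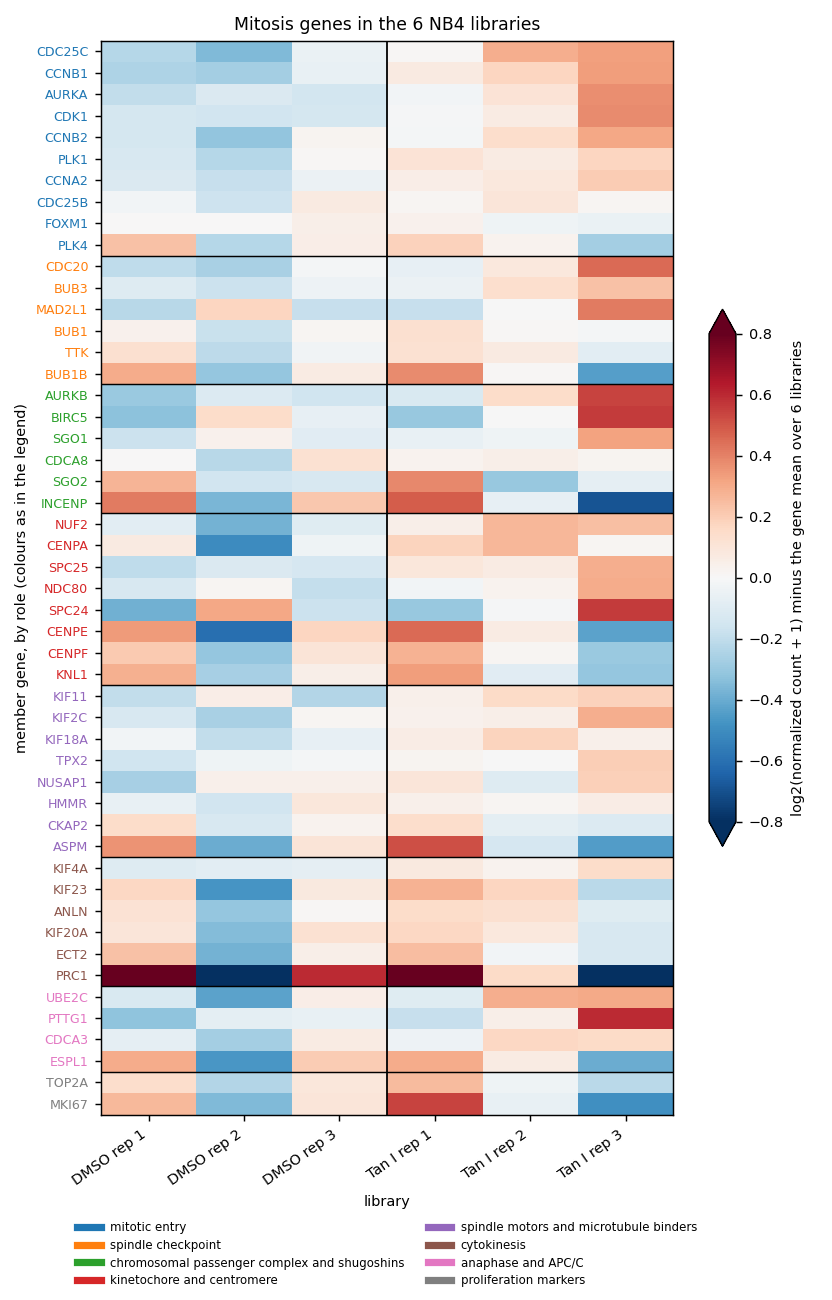
Each row is 1 of the 50 genes, grouped by role, and each column 1 of the 6 libraries, with DMSO left of the black line and Tan I right of it. The colour gives log2(normalized count + 1) minus the gene's mean over the 6 libraries. DMSO replicate 2 was the lowest library in 28 genes and Tan I replicate 3 the highest in 23, whereas ASPM and MKI67, among the longest, were lowest in Tan I replicate 3.

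Of the 10 mitotic entry genes 8 were above 0, with a median log2 fold change of 0.26, the highest of the roles, and 3 passed the unadjusted rule. In 6 of them each Tan I library exceeded each DMSO library. Of all genes tested 1.32% were higher by the unadjusted rule, and 3.92% separated the groups with Tan I above. The mean log2 deviation of these 10 genes from their own means was between -0.20 and -0.025 in the DMSO libraries and between 0.043 and 0.18 in the Tan I libraries. The roles differed in transcript length, and short members had the higher log2 fold changes, as given below. FOXM1 (3552 nt) and PLK4 (3838 nt), the 2 entry genes below 0, had the longest canonical transcripts of this role. The cytokinesis genes, with a median of 0.10, were all 3072 nt or longer. The part of length in the differences between roles was not tested.

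CCNB1 encodes cyclin B1, the partner of CDK1 at mitotic entry. It had 3839, 3775 and 4369 normalized counts in DMSO and 4787, 5123 and 5738 in Tan I, or 3994 ± 326 against 5216 ± 482 (SD, n = 3 each). The groups did not overlap, and the log2 fold change was 0.38 with a standard error of 0.12 and a 95% confidence interval of 0.10 to 0.67. The unadjusted limma p was 0.0154, the lowest of the 50 genes. CCNB1 passed the unadjusted rule in 18 of 20 alternative settings, more often than any other member.

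CDC25C, the phosphatase that removes the inhibitory phosphates of CDK1, had 656, 601 and 741 normalized counts in DMSO and 774, 938 and 963 in Tan I. The groups did not overlap, and the log2 fold change of 0.42 (standard error 0.14, unadjusted limma p 0.0198) was the highest of the members. AURKA, the kinase of centrosome maturation, had 2265, 2391 and 2338 in DMSO and 2551, 2801 and 3354 in Tan I. Its log2 fold change was 0.31 (standard error 0.13, unadjusted limma p 0.0472), just inside the threshold, and Tan I replicate 3 stood highest.

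CDK1, the kinase at the centre of mitotic entry, was tight in DMSO and wider in Tan I. Its normalized counts were 9953, 9873 and 9953 in DMSO and 10910, 11514 and 14251 in Tan I, with a log2 fold change of 0.29 (confidence interval -0.03 to 0.61), and the groups did not overlap. CCNA2, which encodes the cyclin A2 of S phase and early mitosis, had 3726, 3541 and 3908 in DMSO and 4178, 4274 and 4646 in Tan I (log2 fold change 0.23). PLK1, the polo-like kinase of mitotic entry and the spindle, had 2698, 2515 and 2962 in DMSO and 3180, 3089 and 3326 in Tan I (log2 fold change 0.23). CDK1, CCNA2 and PLK1 each separated the groups without passing the unadjusted rule. CCNB2, which encodes cyclin B2, overlapped between the groups with a log2 fold change of 0.29.

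FOXM1 and PLK4 were the 2 mitotic entry genes below 0. FOXM1, the transcription factor of the late cell cycle genes, had 1320, 1317 and 1358 normalized counts in DMSO and 1345, 1286 and 1268 in Tan I, with a log2 fold change of -0.04 and a confidence interval of -0.27 to 0.20. PLK4, the kinase of centriole duplication, had 2124, 1546 and 1874 in DMSO and 2054, 1844 and 1500 in Tan I (log2 fold change -0.04). In both genes the groups overlapped, and for FOXM1 Tan I replicates 2 and 3 lay below the DMSO libraries. CDC25B, another activator of CDK1, had a log2 fold change of 0.08.

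**Figure D2:**
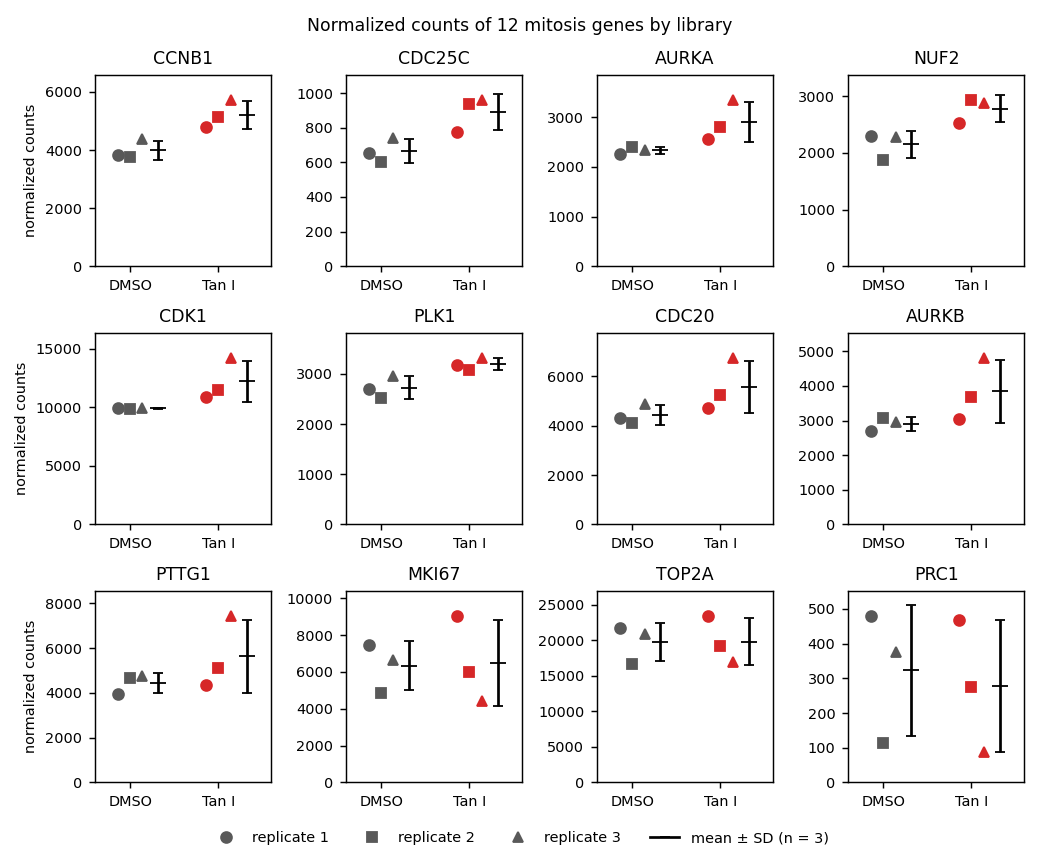
Normalized counts of 12 genes are plotted on linear axes that start at 0, DMSO in grey and Tan I in red, 1 point per library, with the mean and SD of the 3 libraries at the right. CCNB1, CDC25C, AURKA, NUF2, CDK1 and PLK1 had no overlap between the groups, whereas in MKI67, TOP2A and PRC1 the groups overlapped.

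None of the 6 spindle checkpoint genes passed the unadjusted rule. Of these 5 were above 0, with a median of 0.12, and in all 6 the groups overlapped. Over all genes tested 2.42% passed the rule, and the groups overlapped in 15554 of 16887. CDC20, the APC/C activator that the checkpoint sequesters, had the highest log2 fold change of the role, 0.32 (confidence interval -0.05 to 0.69). Its normalized counts were 4291, 4118 and 4886 in DMSO and 4723, 5234 and 6759 in Tan I, and Tan I replicate 1 lay inside the DMSO range. BUB3, a checkpoint scaffold that binds BUB1 and BUBR1, had a log2 fold change of 0.21.

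MAD2L1, which encodes MAD2, the checkpoint protein that binds CDC20, had 2715, 3568 and 2788 normalized counts in DMSO and 2786, 3155 and 4216 in Tan I (log2 fold change 0.15). BUB1, the kinase that recruits the checkpoint to kinetochores, had 3988, 3444 and 3944 in DMSO and 4264, 3925 and 3853 in Tan I (log2 fold change 0.08). TTK, the kinase that starts checkpoint signalling, had 2925, 2311 and 2617 in DMSO and 2905, 2809 and 2519 in Tan I (log2 fold change 0.07). BUB1B, which encodes the checkpoint protein BUBR1, was the lowest of the role at -0.04, with 5162, 3380 and 4402 in DMSO and 5443, 4231 and 3089 in Tan I. The spread of BUB1B within each group exceeded the difference between the groups many times over.

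Of the 6 genes of the chromosomal passenger complex and the shugoshins, 5 were above 0 with a median of 0.11. None of the 6 passed the unadjusted rule, against 2.42% of all genes tested. All 6 overlapped, as did 15554 of the 16887 genes tested. AURKB, the kinase that corrects wrong attachments of microtubules, had the highest value of the role. It had 2689, 3063 and 2966 normalized counts in DMSO and 3037, 3672 and 4820 in Tan I, with a log2 fold change of 0.38 (confidence interval -0.03 to 0.79). Tan I replicate 1 lay just below DMSO replicate 2, and Tan I replicate 3 stood well above the rest.

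INCENP, the scaffold that activates AURKB in this complex, had the lowest value of the role, a log2 fold change of -0.18 (confidence interval -0.92 to 0.57). It had 4497, 2613 and 3907 in DMSO and 4718, 3219 and 2087 in Tan I. BIRC5, which encodes survivin, had 3446, 4794 and 4144 in DMSO and 3506, 4318 and 6389 in Tan I (log2 fold change 0.17). AURKB and BIRC5 were highest in Tan I replicate 3, the library in which INCENP was lowest. Their canonical transcripts are 1243 nt (AURKB), 2574 nt (BIRC5) and 4114 nt (INCENP) long. Short members stood high relative to long ones in that library, and the part of length in these 3 genes was not tested. CDCA8, which encodes borealin, and the shugoshins SGO1 and SGO2, which guard centromeric cohesion, had log2 fold changes of 0.07, 0.15 and 0.01.

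Among the 8 kinetochore and centromere genes, 6 were above 0 with a median of 0.18, 1 passed the unadjusted rule and 2 separated the groups. The shares of all genes tested were 1.32% higher by the rule and 3.92% separated with Tan I above. NUF2, a subunit of the NDC80 complex that grips the microtubule, had 2301, 1882 and 2287 normalized counts in DMSO and 2520, 2942 and 2890 in Tan I, or 2157 ± 238 against 2784 ± 230 (SD, n = 3 each). The groups did not overlap, and its log2 fold change was 0.37 with a standard error of 0.13 and an unadjusted limma p of 0.0227. The other 3 subunits of this complex were above 0 as well, NDC80 at 0.20, SPC24 at 0.16 and SPC25 at 0.30. NDC80 had 885, 977 and 847 in DMSO and 951, 986 and 1188 in Tan I, and its groups overlapped. SPC25 separated the groups, and SPC24 did not.

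CENPA, the histone H3 variant that marks centromeres, had 1030, 693 and 960 normalized counts in DMSO and 1109, 1181 and 991 in Tan I (log2 fold change 0.31, confidence interval -0.10 to 0.71). CENPF, a large kinetochore protein of late G2 and mitosis, had 4222, 2947 and 3915 in DMSO and 4421, 3696 and 2966 in Tan I (log2 fold change -0.00). KNL1, the scaffold that docks BUB1, was the lowest of the role at -0.04, with 4068, 2776 and 3445 in DMSO and 4201, 3132 and 2695 in Tan I. In CENPF and KNL1 replicate 1 was the highest library of both groups. CENPE, a kinetochore motor, had a log2 fold change of 0.06.

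Of the 8 genes of spindle motors and microtubule binders, 6 were above 0 with a median of 0.13. None of the 8 passed the unadjusted rule, against 2.42% of all genes tested. The groups were separated in 3 of them (KIF18A, KIF2C and TPX2), against 3.92% of all genes tested with Tan I above. KIF11, the motor that pushes the spindle poles apart, had the highest value of the role. It had 2047, 2435 and 1992 normalized counts in DMSO and 2412, 2602 and 2664 in Tan I, with a log2 fold change of 0.25 (confidence interval -0.03 to 0.53). Its DMSO replicate 2 lay just above Tan I replicate 1, and the groups overlapped.

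TPX2, the activator of AURKA on the spindle, had 5363, 5858 and 5927 in DMSO and 6090, 5986 and 6892 in Tan I, with a log2 fold change of 0.14. ASPM, a spindle pole protein, was the lowest at -0.04, with 3153, 1868 and 2646 in DMSO and 3523, 2237 and 1804 in Tan I. KIF2C, a kinesin that depolymerizes microtubules, and KIF18A, a kinesin that helps align chromosomes, had log2 fold changes of 0.25 and 0.18. HMMR and NUSAP1, which bind spindle microtubules, were at 0.08 and 0.12, and CKAP2, another spindle protein, at -0.03. In the annotation 86.8% of the exon bases of NUSAP1 were shared with OIP5, OIP5-AS1 and another gene, so its counts are uncertain.

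Of the 6 cytokinesis genes 5 were above 0 with a median of 0.10. None of the 6 passed the unadjusted rule, against 2.42% of all genes tested. KIF4A alone separated the groups, as 3.92% of all genes tested did with Tan I above. KIF4A, a motor that partners PRC1 at the central spindle, had the highest value of the role, 0.17, with 1698, 1720 and 1736 normalized counts in DMSO and 1922, 1861 and 2012 in Tan I. ANLN, which encodes anillin of the contractile ring, had 3987, 2978 and 3708 in DMSO and 4080, 4032 and 3446 in Tan I (log2 fold change 0.12). KIF23 and KIF20A, motors of the midzone, and ECT2, the activator of RhoA at the cleavage furrow, were at 0.16, 0.08 and 0.06.

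PRC1, which bundles antiparallel microtubules of the midzone, had the lowest log2 fold change of all members, -0.28, and the widest confidence interval, -1.95 to 1.40. It had 480, 113 and 376 normalized counts in DMSO and 469, 276 and 88.0 in Tan I, so that each group spanned more than its own mean. In the annotation 61.9% of the exon bases of PRC1 are shared with PRC1-AS1 on the other strand and with a further gene on the same strand, and the counting was not stated to use strand. PRC1 also had the fewest reads of any member, 66 in Tan I replicate 3.

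Of the 4 genes of anaphase and the APC/C, 3 were above 0 with a median of 0.25. None of the 4 passed the unadjusted rule, against 2.42% of all genes tested. All 4 overlapped, as did 15554 of the 16887 genes tested. UBE2C, the ubiquitin-conjugating enzyme of the APC/C, had 3015, 2439 and 3404 normalized counts in DMSO and 3066, 4021 and 4039 in Tan I, with a log2 fold change of 0.33 (confidence interval -0.07 to 0.73). PTTG1, which encodes securin, the inhibitor of separase, had 3942, 4679 and 4745 in DMSO and 4347, 5104 and 7451 in Tan I (log2 fold change 0.31). ESPL1, which encodes separase itself, was the lowest at -0.02, with 2678, 1581 and 2509 in DMSO and 2684, 2280 and 1654 in Tan I. For PTTG1 the value of Tan I replicate 3 stood apart from the rest. CDCA3, which encodes a protein that triggers mitotic entry through an SCF ligase, was at 0.19.

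The proliferation markers did not differ detectably between the groups, given the spread between the 3 libraries of each group. MKI67, which encodes the antigen Ki-67, had 7469, 4881 and 6668 normalized counts in DMSO and 9051, 5992 and 4445 in Tan I, with a log2 fold change of -0.00 and a confidence interval of -0.65 to 0.64. TOP2A, the topoisomerase that untangles sister chromatids, had 21685, 16703 and 20902 in DMSO and 23460, 19149 and 16885 in Tan I, with a log2 fold change of 0.00 and a confidence interval of -0.41 to 0.41. Each was highest in Tan I replicate 1, and MKI67 was lowest in Tan I replicate 3 and TOP2A in DMSO replicate 2.

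**Figure D3:**
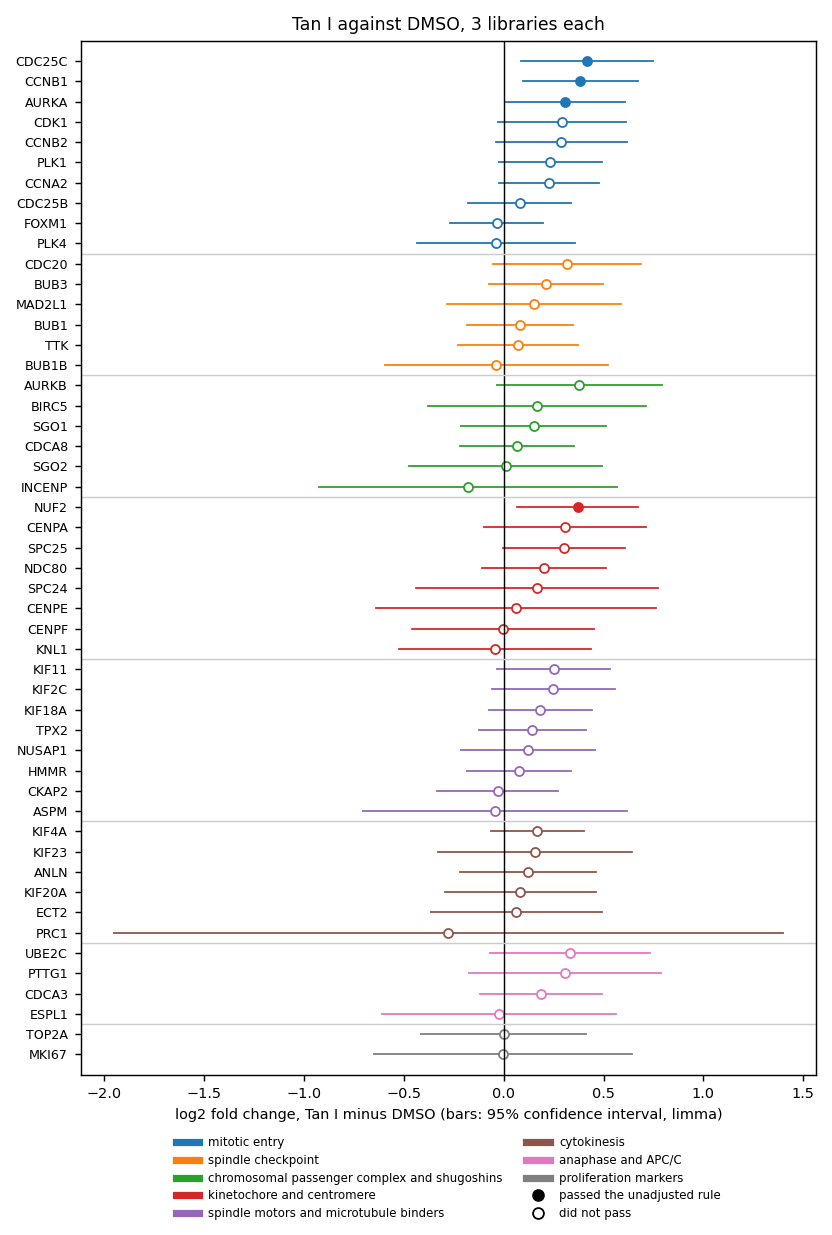
Log2 fold changes of the 50 genes (Tan I minus DMSO, limma) are given by points with their 95% confidence intervals as bars, grouped by role. The 4 filled points are CDC25C, CCNB1, AURKA and NUF2, and the remaining 46 intervals included 0, with PRC1 the widest at -1.95 to 1.40.

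The members were abundant transcripts. Their mean normalized counts had a median of 2687 and ranged from 300.3 to 19797, against a median of 332 over all genes tested, and 42 of the 50 lay in the top 25% of all genes tested. Per kilobase of the canonical transcript, PTTG1 was the highest with a level of 7056 mean normalized counts, followed by CDK1 at 5863, UBE2C at 4287, CCNB2 at 3579 and TOP2A at 3476. SGO1 at 117 and PRC1 at 97.8 were the lowest.

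The log2 fold changes of the members differed with transcript length. Over the 50 members the Spearman correlation of canonical transcript length with log2 fold change was -0.73, given as a description, and over 16825 genes tested it was -0.21. The points share the same 6 libraries and are not independent. The 17 shortest members (715 to 2290 nt) had a median log2 fold change of 0.31, were all above 0 and included all 4 that passed the unadjusted rule. The 16 of middle length (2371 to 3669 nt) had a median of 0.08, with 12 above 0, and the 17 longest (3762 to 12716 nt) had a median of 0.01, with 10 above 0.

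The relation to length also differed between libraries. The Spearman correlation of length with the deviation from the gene mean over the 50 members was 0.64 in DMSO replicate 1, -0.15 in DMSO replicate 2, 0.38 in DMSO replicate 3, 0.61 in Tan I replicate 1, -0.49 in Tan I replicate 2 and -0.70 in Tan I replicate 3. In DMSO replicate 1 and Tan I replicate 1 long members were high relative to short ones, and in Tan I replicates 2 and 3 short members were high. The correlations over all 16825 genes had the same signs, between -0.28 and 0.24. The median deviation of the 17 shortest members was between -0.23 and -0.06 in DMSO and was -0.01, 0.11 and 0.31 in Tan I replicates 1 to 3. With the values of each library corrected for transcript length and GC content, 46 members were above 0 with a median of 0.18, against a median of 0.03 over all genes, and 5 were higher by the unadjusted rule, the 4 named and SPC25, against 1.75% of all genes. With the score on the first component as a covariate, 48 members were above 0 and 12 were higher by the unadjusted rule, against 4.25% of all genes. The component was computed from the same values, so the p-values behind these calls may be too small. The part of the lower depth of the Tan I libraries was not tested.

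**Figure D4:**
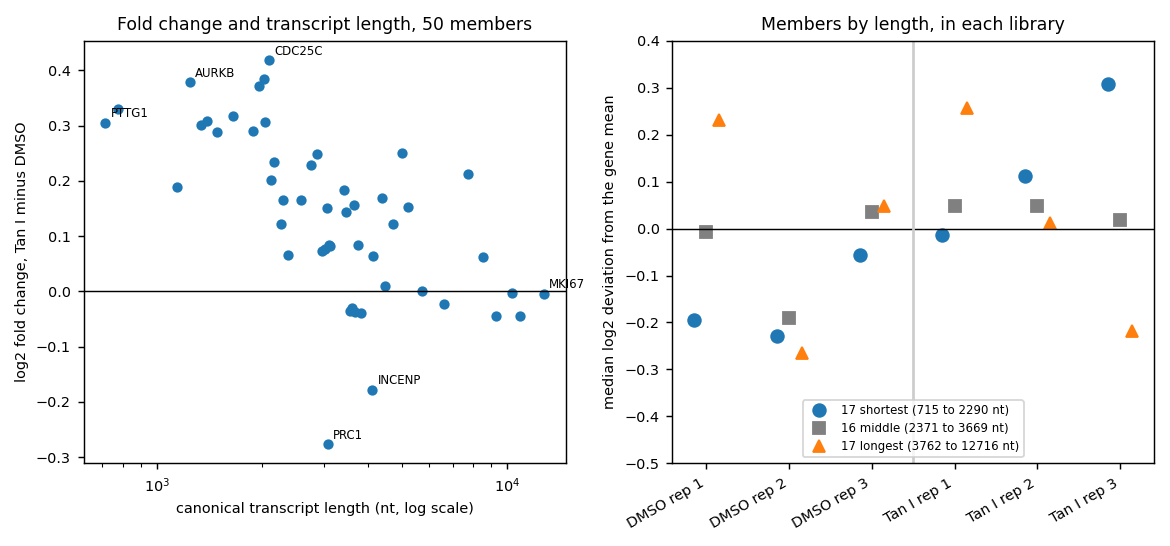
The left plot gives log2 fold change (Tan I minus DMSO) against the length of the canonical transcript (log axis) for the 50 members, and the right plot the median log2 deviation from the gene mean of the 17 shortest, 16 middle and 17 longest members in each library. Short members lay higher in Tan I, and in Tan I replicate 3 the shortest were at 0.31 and the longest at -0.22.

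Other genes of the pathway were taken from 6 lists that hold no member, and in 4 of these most genes were above 0. Over all genes tested 49.7% were above 0, and by the unadjusted rule 1.32% were higher and 1.1% lower. Of 17 genes of APC/C subunits, activators and regulators, 13 were above 0 with a median of 0.11 and 1 passed the unadjusted rule. This was FBXO5, which encodes the APC/C inhibitor EMI1, with 1363, 1277 and 1207 normalized counts in DMSO and 1515, 1543 and 1660 in Tan I (log2 fold change 0.29). Of 28 genes of the inner kinetochore, the MIS12 complex and the RZZ complex, 21 were above 0 with a median of 0.07 and 1 passed, HJURP, the chaperone that deposits CENPA, at 0.38. HJURP had 4775, 3683 and 4949 in DMSO and 5919, 5723 and 5649 in Tan I, and in both genes the groups did not overlap.

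Of 29 other spindle and checkpoint genes, 22 were above 0 with a median of 0.11 and 1 passed, MELK, a kinase of proliferating cells, with a log2 fold change of 0.33. MELK had 1099, 1274 and 1094 normalized counts in DMSO and 1349, 1443 and 1552 in Tan I. Of 12 genes that control mitotic entry, 11 were above 0 with a median of 0.11 and none passed. The 20 condensin and cohesin genes split 10 above and 10 below 0, with a median of -0.00, and of 21 tested DREAM and MuvB genes 10 were above 0, with a median of -0.00. In neither did a gene pass, and in all 6 lists no gene was lower by the unadjusted rule, against 1.1% of all genes tested. None of these genes passed after adjustment in limma.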

How the data were processed

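RNA-seq was performed on NB4 cells, 3 libraries each with DMSO or Tan I at 10 μM for 3 days, on a NovaSeq with paired-end reads. According to the methods and the submitters' processing notes, the authors used STAR with GRCh38, dropped multi-mapped reads, counted with featureCounts and ran DESeq2. Versions, annotation and strand setting are not given in the sources used here. The deposited signal values are read counts divided by 1 size factor per library by the authors, in normalized counts. The table also holds the authors' comparison (mean, log2 fold change with its error, statistic and p-values), which was not used. Of other per-sample columns there were 0.

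In each library 100% of values were whole multiples of what 1 read is worth (tolerance 0.01 read), so reads were recovered for the count tests, and 0 pairs of libraries were duplicates, with a chi-square per gene of at least 7.95. Groups were compared with limma 3.58.1 (R 4.3.3, with trend) on log2(normalized count + 1), over 16887 genes with a mean of at least 10, with Benjamini-Hochberg adjustment and no covariate. Genes with an unadjusted p of at most 0.05 and a log2 fold change of 0.25 or more in size were counted. The exact permutation test was two-sided. Alternatives were other pseudocounts, filters and scalings, edgeR 4.0.16 and DESeq2 1.42.0 on the recovered reads, no trend, the replicate number as a block, the first component as a covariate, and each library left out. The scripts were tested on simulated data. Lengths, positions and overlaps came from GENCODE release 44, which held 99.6% of the identifiers, and promoters from RefSeq. Values per library are given for a set of anchor genes, for members past the unadjusted rule and for the highest and lowest of each role, and genes outside the members where they passed it. The members and lists were chosen with earlier results of these data known.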

Additional observations from a re-analysis of the deposited data

How the results depend on the processing

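The median of the members stayed above 0 in all 20 alternatives, between 0.089 and 0.18, and 30 to 48 of the 50 members were above 0. Rescaling each library to the same total moved the median of all genes to -0.061, and the members' median was then 0.092. By the unadjusted rule 4 members were called, all higher, and 1.32% of all genes were higher. The share of all genes called higher is given in brackets for the other settings. DESeq2 on the recovered reads called 7 members (1.52%), and the fit that held the first component called 12 (4.25%). Leaving out both DMSO replicate 2 and Tan I replicate 3 gave 1 member (1.6%). Leaving out single libraries gave 1 to 11. The number was 1 without DMSO replicate 1 (NUF2, 0.586%), Tan I replicate 2 (CCNB1, 0.456%) or Tan I replicate 3 (CCNB1, 0.782%). Without DMSO replicate 2 it was 2 (1.72%), and without DMSO replicate 3 it was 3 (0.705%). Without Tan I replicate 1 it was 11 (4.32%). The cause was not tested. After adjustment 0 members were called except with the first component as a covariate, where 1 was (CCNB1). That component was computed from the same values that were tested, so the p-values of that fit may be too small. In that setting 195 of all 16887 genes tested were called after adjustment. DESeq2 gave no adjusted p for 3602 genes, which stayed out of its counts. Over all genes the unadjusted rule called 408, 1496 with the first component as a covariate, and 160 to 1496 with single libraries left out. With the replicate block 4 members were called (against 1.14% of all genes higher), 3 of them among the original 4, and the median was 0.15. Same-numbered libraries did not match consistently: the correlations of their deviations were 0.75, -0.088 and -0.45. Within a group a gene's deviations sum to 0, so these values cannot show whether the libraries were made in pairs. Tan I replicate 3 correlated best with DMSO replicate 2 (0.76), and Tan I replicate 2 best with DMSO replicate 3, at only 0.13. CCNB1 passed in 18 of 20 alternatives, CDC25C and NUF2 in 15 each and AURKA in 10, and none of these 4 changed direction. Correction for length and GC content and the joint omission of both libraries were chosen after seeing the data.

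The log2 fold change turned direction in other members, none of which had passed the rule. With DESeq2, MKI67 was at 0.035. With edgeR, MKI67 was at 0.035. With TMM factors, TOP2A was at -0.0011. Rescaled to the same total, SGO2 was at -0.050 and TOP2A at -0.059. With quantile normalization, TOP2A was at -0.12. With both libraries left out, BUB1B was at 0.0098, CDCA8 at -0.023, ECT2 at -0.028, MKI67 at 0.062, SGO2 at -0.029 and TOP2A at -0.0064. Corrected for length and GC content, ASPM was at 0.057, BUB1B at 0.011, CENPF at 0.12, ESPL1 at 0.075, FOXM1 at 0.012, KNL1 at 0.052 and MKI67 at 0.15. With the first component as a covariate, ASPM was at 0.14, BUB1B at 0.11, CENPF at 0.11, CKAP2 at 0.023, ESPL1 at 0.13, INCENP at 0.034, KNL1 at 0.079, MKI67 at 0.17, PLK4 at 0.056, PRC1 at 0.21 and SPC24 at -0.0015. With single libraries left out, 22 members turned direction at least once: ANLN ran from -0.0013 to 0.21, ASPM from -0.31 to 0.17, BIRC5 from -0.072 to 0.36, BUB1B from -0.23 to 0.18, CDCA8 from -0.029 to 0.14, CENPE from -0.22 to 0.29, CENPF from -0.16 to 0.15, CKAP2 from -0.11 to 0.036, ECT2 from -0.11 to 0.20, ESPL1 from -0.26 to 0.17, INCENP from -0.47 to 0.12, KIF20A from -0.070 to 0.17, KIF23 from -0.043 to 0.30, KNL1 from -0.22 to 0.098, MAD2L1 from -0.017 to 0.28, MKI67 from -0.27 to 0.24, PLK4 from -0.16 to 0.087, PRC1 from -0.91 to 0.40, SGO2 from -0.18 to 0.16, SPC24 from -0.073 to 0.36, TOP2A from -0.13 to 0.11 and TTK from -0.014 to 0.16. The cause was not tested. The fewest reads on a member were 66, for PRC1 in Tan I replicate 3, and whether depth limits its value was not tested.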

Other observations

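Genes of S phase, listed for comparison with mitosis, had 14 of 18 above 0 (median 0.07). Of the members 39 of 50 were above 0 (median 0.15), and of all genes tested 49.7%. MCM2 had all Tan I libraries below all DMSO libraries (log2 fold change -0.23), as 3.97% of all genes did. Of the 18 genes 1 passed the unadjusted rule, by which 1.32% of all genes tested were higher. RRM2, a subunit of ribonucleotide reductase, had 3619, 4281 and 3830 normalized counts in DMSO and 4552, 4844 and 6871 in Tan I, with a log2 fold change of 0.45 and no overlap between the groups. Of the promyelocyte markers 8 were tested and 3 passed, against 2.42% of all genes in either direction. MPO had 60389, 64107 and 63267 normalized counts in DMSO and 33279, 39450 and 37076 in Tan I (log2 fold change -0.78). CTSG, which encodes the granule protease cathepsin G, had 1536, 2392 and 1801 in DMSO and 839, 1263 and 1496 in Tan I (log2 fold change -0.69). ANPEP, which encodes the surface peptidase CD13, had 18572, 19183 and 19265 in DMSO and 22588, 25628 and 23344 in Tan I (log2 fold change 0.33). In RRM2, MPO, CTSG and ANPEP the groups did not overlap, and none of these 4 passed after adjustment in limma.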
